A study of Mus musculus with 5 samples.

Results

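The genes described here are 42 genes of DNA replication and S phase, listed by name for their known function. The list was made with earlier results of these data known. Every probe set annotated to 1 of these symbols was taken, which gave 92 probe sets for 41 genes, of 18193 genes named on the array. No probe set was listed for Chaf1a. Total RNA had been measured on Affymetrix expression arrays in 5 clones of mouse cardiac progenitor cells, called 1D, 11B, 20B, 30 and 42, with 1 array per clone. The source was left ventricle of adult mice of 5 to 6 months, of the strain written C67BL/6 in the labels, by magnetic selection for the surface marker Sca-1, growth as cardiospheres and repeated cloning. The samples are labelled c-kit+, the labels name no treatment, and each line is 1 clone. There is no control group, no clone has a replicate, and no difference below has a replicate check or a p-value.

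DNA replication starts when the origin recognition complex, Cdc6 and Cdt1 load the MCM2-7 ring, a hexameric helicase, onto DNA in G1. Cyclin E and E2F factors drive entry into S phase, Cdc45 and the GINS complex turn the ring into an active helicase, and primase, polymerases and the PCNA clamp copy the strands. In dividing cells many of these genes are transcribed together at the boundary of G1 and S phase, and their summed level is often used as a readout of the share of cells in S phase. In bulk RNA a smaller share of cells in S phase and less RNA per cell cannot be told apart.

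The deposited values are ratios, in which the divisor of a probe set is its median across the clones, except for dim probe sets, which were set against a common floor. They show differences between clones but no expression level. A probe set was followed if its median was exactly 1 or a clone lay above 1, and if its range exceeded 0.05 log2 units. By this filter 44 probe sets of 32 of the 41 genes could be followed, 23 of these genes on 1 probe set. Of the other probe sets, 35 stayed under the floor throughout and 13 were flat. The 9 genes with no usable probe set were Orc1, Cdc6, Cdt1, Mcm10, Mcm4, Rfc5, Rpa1, Tyms and Ccne2, which says nothing of whether they were transcribed. A gene's value is the mean log2 ratio of its measured probe sets, and its deviation in a clone is that value minus the median of the other 4 clones. Probe sets of the same gene differed such that a single probe set had a standard deviation of 0.34 log2 units about its gene, from 6681 pairs on the array, and the standard errors below are derived from it. They are not the spread of the gene's own probe sets, take these as independent, and cover neither culture nor RNA preparation.

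Among the cell markers, Kit, the gene of c-kit, lay at 1.183 in clone 20B against 0.991 to 1.002 in the other clones. Its other probe set lay below the floor at 0.614 to 0.618. Pou5f1 lay below the floor at 0.572 to 0.580, and Ly6a had no probe set of its own. None of 5 endothelial marker genes could be followed, nor could 3 of 5 leukocyte genes, 2 of 5 cardiomyocyte genes, 1 of 4 smooth muscle genes and 3 of 5 stromal genes. The widest of those followed were the stromal gene Col1a1, at -2.17 log2 units in clone 42, and the smooth muscle gene Tagln, at 1.83 in clone 30. The 5' to 3' signal ratio of the Actb control, a sign of RNA integrity, was lowest in clones 11B (0.597) and 30 (0.743) and lay at 1.00 to 1.08 in clones 1D, 20B and 42. For Gapdh it was also lowest in these 2 clones, at 0.924 in clone 11B and 1.00 in clone 30, against 1.03 to 1.16 in the other clones. The 3 control probe sets for 18S ribosomal RNA had 0.411 to 0.555 in clone 11B and 0.651 to 0.955 in clone 42, against 1.000 to 1.569 in clones 1D, 20B and 30. The part of these differences in the results below was not tested.

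The replication genes did not move as a block. In no clone did their median deviation exceed 0.05 log2 units in size: it was 0.01 in clone 1D, 0.00 in clone 11B, -0.04 in clone 20B, -0.0033 in clone 30 and 0.05 in clone 42. Over all 9435 measured genes the same medians lay between -0.01 and 0.00. What differed were single genes. Of the 32 measured members 8 ranged over at least 1 log2 unit, a 2-fold difference between the highest and the lowest clone, against 13% of all measured genes, and the median range was 0.58 log2 units against 0.41 over all genes. These 8 were Rpa2, Rfc4, Cdc45, Rrm2, Ccne1, Prim1, Rrm1 and Mcm7, and in 7 of them a different probe set of the same gene was flat, below the floor or much narrower. The count was 5 with flat probe sets kept in the average, 2 with every probe set averaged, and 5 without clone 11B. Mcm7, with a range of 1.09, lay just inside the limit and Pcna, at 0.98, just outside it.

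**Figure D1:**
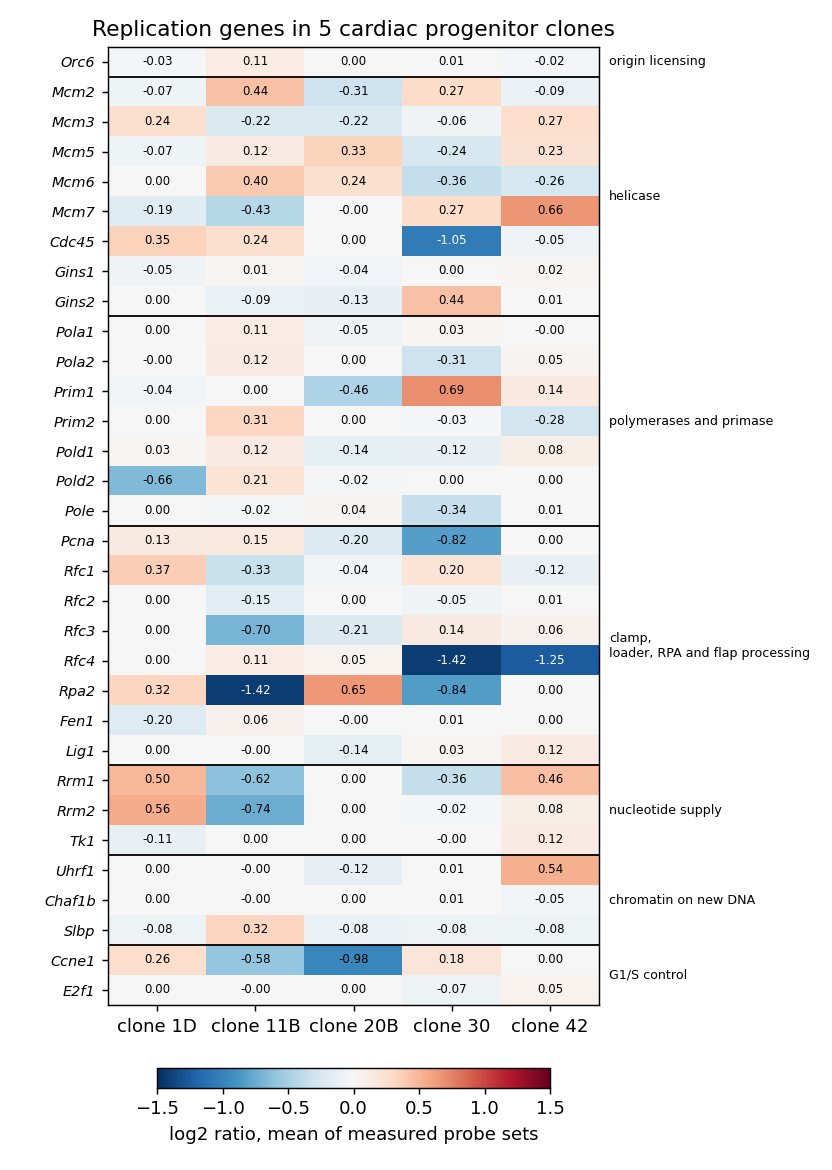
Log2 ratios of the 32 measured replication genes (rows, by role) in the 5 clones (columns), each the mean of the gene's measured probe sets, with the value printed in the cell. Strong colours sit in single cells and not in whole columns: Rfc4 is low in clones 30 (-1.42) and 42 (-1.25), Rpa2 in clone 11B (-1.42) and Cdc45 in clone 30 (-1.05).

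**Figure D2:**
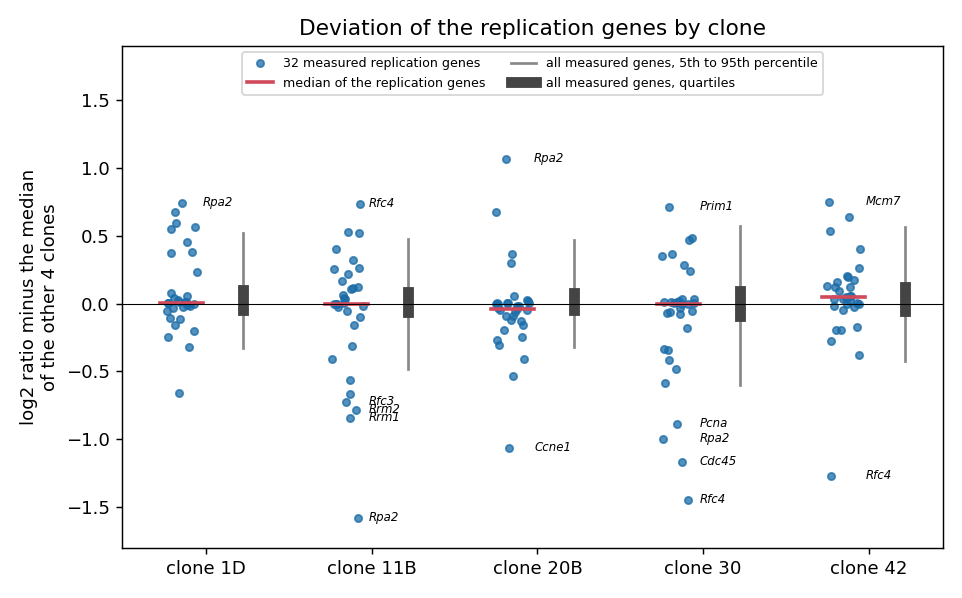
Deviation of each of the 32 measured replication genes (points) from the median of the other 4 clones, in log2 units, by clone, with their median as a red bar, beside the quartiles (thick) and the 5th to 95th percentiles (thin) of all measured genes. The medians lie between -0.04 and 0.05, while single genes reach -1.58 (Rpa2 in clone 11B) and 1.07 (Rpa2 in clone 20B).

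The MCM2-7 ring holds its subunits in equal number, yet its measured genes did not share 1 order of the clones: Mcm7 was highest in clone 42, Mcm2 and Mcm6 were highest in clone 11B, and Mcm3 and Mcm5 gave no usable order. Mcm7 was the most uniform of them, being highest in clone 42 on all 4 of its probe sets. On 1416030_a_at its ratios were 0.880 in clone 1D, 0.772 in clone 11B, 1.000 in clone 20B, 1.238 in clone 30 and 1.849 in clone 42. The other 3 probe sets had 1.418, 1.497 and 1.574 in clone 42, the highest clone on each, and 0.635 to 0.827 in clone 11B, which was the lowest clone on 3 of the 4. Averaged, Mcm7 lay 0.75 ± 0.17 log2 units above the other clones in clone 42 (SE, 4 probe sets), which is 1.68-fold, and -0.57 ± 0.17 in clone 11B. Clone 42 was thus set apart by more than the spread between probe sets, and its 4 ratios did not overlap those of any other clone.

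Mcm2 ran another way. Its probe sets gave 1.165 and 1.577 in clone 11B, the highest clone on both, 1.146 and 1.274 in clone 30, 1.000 and 0.908 in clone 1D, 0.880 and 1.000 in clone 42, and 0.668 and 0.974 in clone 20B. Its deviation in clone 11B was 0.52 ± 0.24 (SE, 2 probe sets). Mcm6 also was highest in clone 11B, with ratios of 1.315 there, 1.180 in clone 20B, 1.000 in clone 1D, 0.836 in clone 42 and 0.778 in clone 30. Its deviation of 0.52 ± 0.34 in clone 11B rests on 1 probe set. Of the other 2, 1 was flat and 1, below the floor in every clone, was highest in clone 11B as well, at 0.923 against 0.745 to 0.758.

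For Mcm3 and Mcm5 the probe sets disagreed. On 1426653_at Mcm3 was 0.613 in clone 11B, the lowest clone, 0.923 in clone 30, 1.000 in clone 20B, 1.426 in clone 42 and 1.505 in clone 1D. On 1426652_at it was 1.206 in clone 11B, the highest clone, and 0.742 in clone 20B. The Mcm5 ratios on 1415945_at were 1.470 in clone 20B, 1.396 in clone 42, 1.000 in clone 1D, 0.998 in clone 11B and 0.721 in clone 30, whereas 1436808_x_at spanned only 0.910 to 1.191. No order of the clones can be given for these 2 genes. Mcm4 lay below the floor, at 0.967 to 0.972 and 0.792 to 0.795 on its 2 probe sets.

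**Figure D3:**
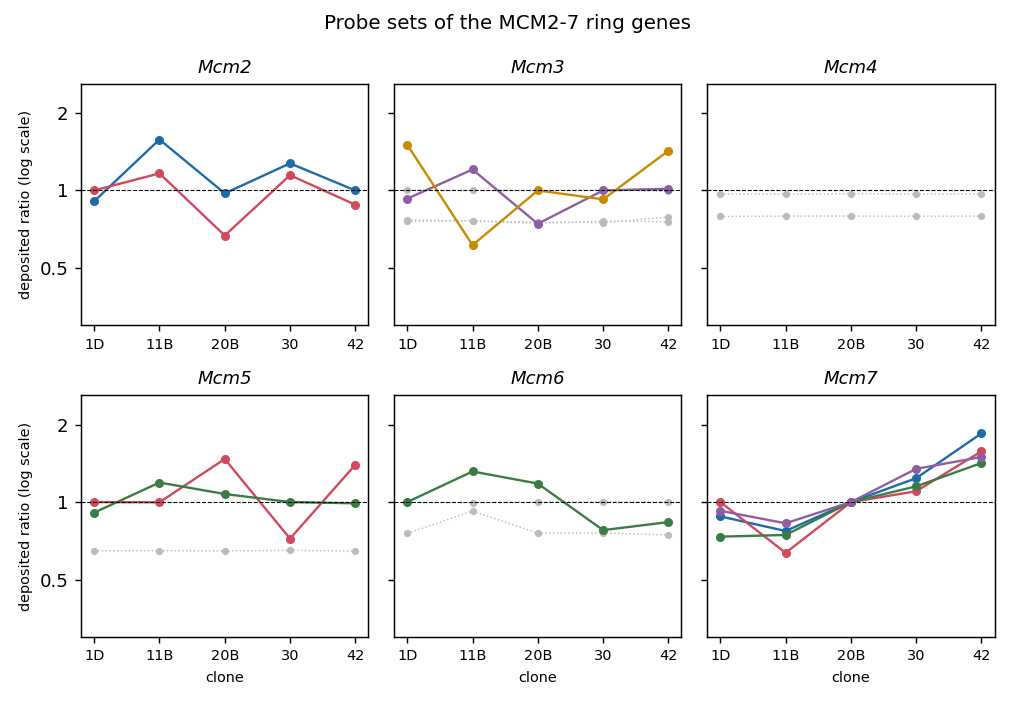
Deposited ratio (log scale) of each probe set of the 6 MCM2-7 ring genes by clone, 1 line per probe set, coloured if measured and grey and dotted if flat or below the floor. The 4 Mcm7 lines run together, with clone 42 at 1.418 to 1.849, the Mcm3 lines cross at clone 11B (0.613 and 1.206), and both Mcm4 lines are flat.

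The promoters of 3 ring genes are shown because each holds an E2F-type element, while Mcm6 and Mcm7 were highest in different clones and Mcm5 had no usable order. E2F factors bind elements that were searched as TTTCCCGC, TTTCGCGC, TTTGCCGC or TTTGGCGC on both strands. Within 250 bases before the start, 8 of the 35 members with a promoter in the RefSeq table held such a match (22.9%), against 2.16% of 27025 genes. The 8 were Orc1, Cdc6, Mcm5, Mcm6, Mcm7, Pola1, Rfc3 and Uhrf1, and the promoters of Mcm2 and Mcm3 held no match. The pentamer CCAAT, searched likewise, stood in 62.9% of the members and in 37.5% of all genes. The last 200 bases before the start, from RefSeq on build GRCm38.p6, run as follows, with E2F-type matches in capitals.
Mcm5, chr8:75109309-75109508, plus strand: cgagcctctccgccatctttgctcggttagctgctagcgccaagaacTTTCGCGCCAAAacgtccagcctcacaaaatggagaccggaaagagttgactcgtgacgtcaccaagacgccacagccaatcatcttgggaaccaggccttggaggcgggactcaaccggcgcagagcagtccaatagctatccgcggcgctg
Mcm6, chr1:128359706-128359905, minus strand: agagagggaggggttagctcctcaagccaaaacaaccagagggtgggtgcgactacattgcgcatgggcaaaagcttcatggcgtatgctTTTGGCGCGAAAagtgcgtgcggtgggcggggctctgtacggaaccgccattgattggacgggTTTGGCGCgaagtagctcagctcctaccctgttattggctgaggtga
Mcm7, chr5:138171884-138172083, minus strand: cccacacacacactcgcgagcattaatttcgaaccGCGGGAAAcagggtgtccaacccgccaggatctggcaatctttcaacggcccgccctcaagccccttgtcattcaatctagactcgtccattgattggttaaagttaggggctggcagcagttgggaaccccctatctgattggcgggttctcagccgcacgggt
In Mcm5 and in the first block of Mcm6 a match on each strand overlaps, Mcm6 has a further match nearer the start, and the Mcm7 match reads on the opposite strand. Mcm7 has another promoter in that table, which holds no match. A match describes letters only, and binding was not measured.

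Among the partners that load or activate the ring, Cdc45 stood out. Its ratios were 0.482 in clone 30, 0.963 in clone 42, 1.000 in clone 20B, 1.178 in clone 11B and 1.271 in clone 1D on 1416575_at, a deviation of -1.17 ± 0.34 in clone 30 (SE, 1 probe set). Clone 30 was the only clone below the 0.963 to 1.271 of the other clones. The second probe set was flat, and averaging it in gave -0.59. Gins2, a subunit of the GINS complex, was highest in the same clone, with 1.356 in clone 30 against 0.916 to 1.004 in the other clones, a deviation of 0.49 ± 0.34 on 1 probe set, while the other was flat at 1.000 in clone 30. Gins1 ranged over 0.07 log2 units and Orc6, a subunit of the origin recognition complex, over 0.14, both below the spread of a probe set.

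Primase and polymerase genes differed in few clones. Prim1, the catalytic primase subunit, had ratios of 1.618 in clone 30, 1.104 in clone 42, 1.000 in clone 11B, 0.975 in clone 1D and 0.727 in clone 20B. Its deviation was 0.71 ± 0.34 in clone 30 and -0.53 ± 0.34 in clone 20B, and its other probe set lay below the floor at 0.718 to 0.742. Prim2, the large primase subunit, did not follow it: it was highest in clone 11B, at 1.444 and 1.062 on its 2 probe sets, and lowest in clone 42, at 0.745 and 0.914. On the narrower of these, clones 1D, 20B and 30 had ratios tied at a level that recurs across the array.

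Pold2, the accessory subunit of polymerase delta, was 0.634 in clone 1D against 0.988 to 1.154 in the other clones, a deviation of -0.66 ± 0.34. The catalytic subunit gene Pold1 ranged over only 0.26 log2 units, with clone 1D at 0.05. Pole, the catalytic subunit of polymerase epsilon, was 0.790 in clone 30 against 0.983 to 1.031 in the other clones, and Pola2, of polymerase alpha, was 0.804 in clone 30 against 0.997 to 1.085. These last deviations, -0.34 for each, equal the spread of a probe set. Pola1 ranged over 0.16.

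Pcna, the sliding clamp that holds polymerases on DNA, had 1 probe set with ratios of 0.565 in clone 30, 0.871 in clone 20B, 1.000 in clone 42, 1.098 in clone 1D and 1.111 in clone 11B. Its deviation in clone 30 was -0.89 ± 0.34, and clone 30 lay apart from the other clones.

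Rfc4, a subunit of the clamp loader, split the clones into groups. On 1424321_at it was low in clones 30 (0.373) and 42 (0.421), while clones 1D, 11B and 20B had 1.000, 1.077 and 1.038. The deviations were -1.45 ± 0.34 in clone 30 and -1.27 ± 0.34 in clone 42. Because 2 clones were low together, clones 1D, 11B and 20B received deviations of 0.60, 0.73 and 0.68, which became -0.05, 0.11 and 0.05 without clone 30, and for clone 1D -0.05 also without clone 42. The second probe set of Rfc4 lay below the floor at 0.808 to 0.845, and averaged with it the deviations were -0.71 and -0.65.

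The other loader genes did not share this split. Rfc3 was lowest in clone 11B, at 0.617 against 0.862 to 1.099, a deviation of -0.73 ± 0.34. The 3 probe sets of Rfc1, the large subunit, disagreed: 1451920_a_at gave 2.183 in clone 1D and 0.596 in clone 11B, 1418342_at gave 1.513 in clone 30, and 1449050_at stayed between 0.993 and 1.046. Rfc2 ranged over 0.16 log2 units.

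Rfc4 and Cdc45 both lie on chromosome 16, and some of the genes beside them in the RefSeq order (GRCm38.p6) were also low. Among the 20 measured genes nearest to Rfc4, 10 on each side, 5 lay at least 0.5 log2 units below the other clones in clone 30 and 6 in clone 42, where 6.76% and 3.87% of all measured genes did. The median of the 20 was -0.07 in clone 30 and -0.26 in clone 42. The next measured gene to Rfc4 on 1 side, the translation factor gene Eif4a2, lay at -1.06 in clone 30 and -1.01 in clone 42. Dnajb11, which encodes a chaperone of the endoplasmic reticulum, lay at -1.37 and -1.34. Fetub, between these genes, lay at -0.01 and -0.004, and St6gal1, next to Rfc4 on the other side, at -0.05 and -0.04. Beside Cdc45, 4 of 20 genes lay at least 0.5 log2 units below the other clones in clone 30, and the adjacent Ufd1 lay at -1.05. Gp1bb, adjacent on the other side, lay at -0.01, Dgcr6 at 0.58, and the median of the 20 was -0.07. Around the other 6 members with ranges of at least 1 log2 unit, 0 to 3 of 20 neighbours moved at least 0.5 log2 units in the member's direction. The count was 3 for Rpa2 in clones 1D and 20B, both upward, where 5.57% and 4.3% of all genes did so. It was also 3 for Rrm2 in clone 11B, downward, where 4.67% did. Set beside these shares, neither the count beside Cdc45 nor that beside Rfc4 in clone 30 stands clearly apart. These neighbours were looked at after the values of Rfc4 were seen.

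Rpa2, a subunit of the single-strand binding protein RPA, had the widest range of the members, 2.07 log2 units, wider than 98.6% of measured genes. Its ratios on 1454011_a_at were 0.373 in clone 11B, 0.559 in clone 30, 1.000 in clone 42, 1.248 in clone 1D and 1.568 in clone 20B. Deviations were -1.58 ± 0.34 in clone 11B, -0.999 ± 0.34 in clone 30, 0.74 ± 0.34 in clone 1D and 1.07 ± 0.34 in clone 20B. The second probe set, 1416433_at, lay below the floor at 0.637 to 0.644 and set no clone apart. Averaged with it, the deviation was -0.79 in clone 11B and 0.54 in clone 20B. Fen1 and Lig1, which trim and seal Okazaki fragments, ranged over 0.26 and 0.27.

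Ribonucleotide reductase, which makes deoxyribonucleotides, is built from the products of Rrm1 and Rrm2, and both genes were low in clone 11B. On 1448127_at Rrm1 had 0.471 in clone 11B, 0.615 in clone 30, 1.000 in clone 20B, 1.610 in clone 42 and 1.989 in clone 1D. The other measured probe set, 1415878_at, kept clone 11B lowest at 0.903 and clone 42 highest at 1.170, but clones 1D, 20B and 30 were tied there. The averaged deviation of Rrm1 was -0.85 ± 0.24 in clone 11B, 0.67 ± 0.24 in clone 1D and 0.64 ± 0.24 in clone 42. On the wider probe set alone it was -1.43, 1.34 and 1.04, and on the narrower -0.15, 0.006 and 0.23. The standard error comes from the whole array and understates the gap between these 2 probe sets. Rrm2 had 0.598 in clone 11B, 0.986 in clone 30, 1.000 in clone 20B, 1.059 in clone 42 and 1.470 in clone 1D on 1416120_at. It deviated by -0.78 ± 0.34 in clone 11B and 0.57 ± 0.34 in clone 1D. A second probe set, 1448226_at, was flat with 1.021 in clone 11B, and the deviation there was -0.38 with it averaged in and -0.25 with every probe set averaged. On a further probe set of Rrm2 below the floor, clone 1D was also highest, at 0.977 against 0.613 to 0.622, while clone 11B was not low. Tk1, the thymidine kinase of S phase, ranged over only 0.23.

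The wide probe sets of Rpa2, Rrm1, Rrm2 and Mcm3 were lowest in clone 11B and next lowest in clone 30. So were the 5' to 3' ratios of both Actb and Gapdh, and clone 11B was the lowest on the 18S controls too. For Rrm1, Rrm2 and Mcm3 the other clones also rose in the order of both ratios, 20B, 42 and 1D. Of the 12 member probe sets with a range of at least 1 log2 unit these 4 were lowest in clone 11B and then clone 30 (33.3%), against 374 of 2446 such probe sets over the array (15.3%). Whether RNA integrity had a part in these values was not tested.

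**Figure D4:**
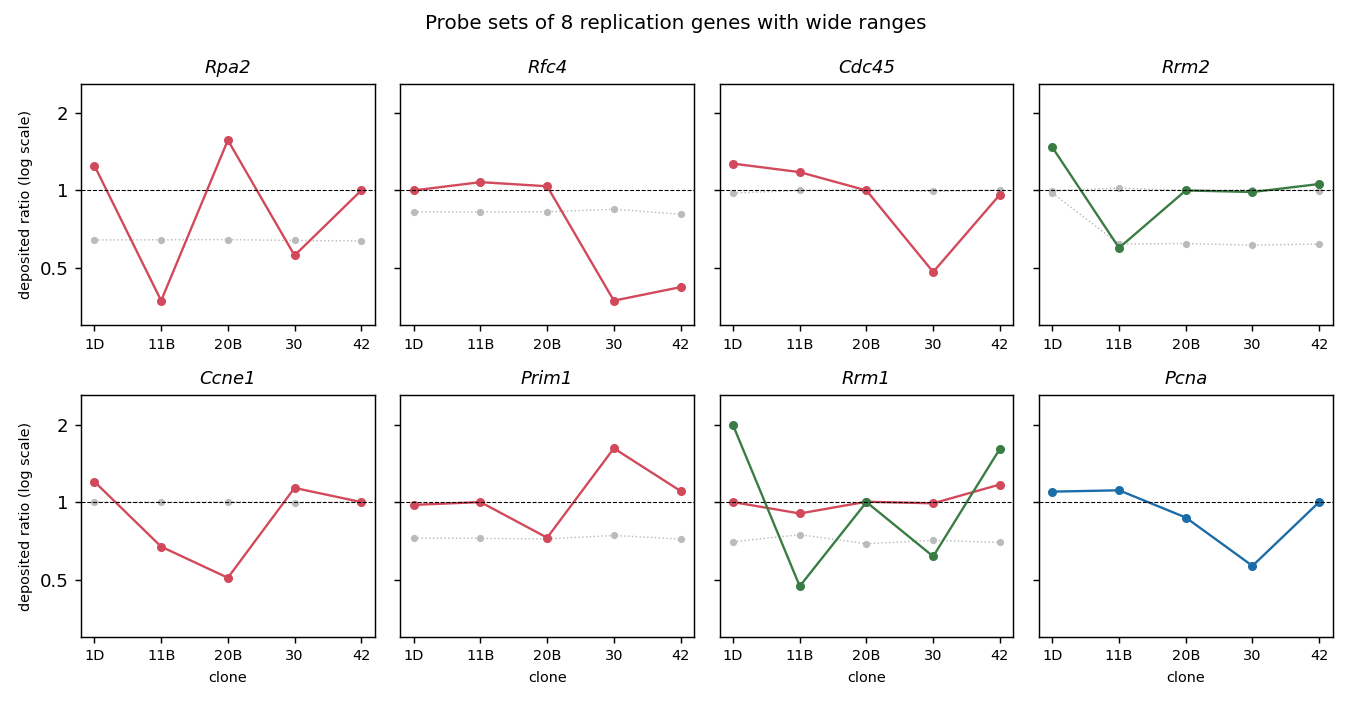
Deposited ratio (log scale) by clone for each probe set of 8 replication genes with wide ranges, coloured if measured and grey and dotted if flat or below the floor. Rfc4 drops in clones 30 (0.373) and 42 (0.421), Pcna (0.565) and Cdc45 (0.482) in clone 30, Rpa2 (0.373) and Rrm1 (0.471) in clone 11B, while further probe sets of most of these genes are flat.

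Of 3 measured genes for packaging new DNA, 1 lay at least 0.5 log2 units from the other clones. This was Uhrf1, upward in clone 42, where 6.38% of all measured genes lay as far above. Uhrf1, which directs maintenance methylation, was 1.451 in clone 42 against 0.919 to 1.004 in the other clones, a deviation of 0.54 ± 0.34. Its second probe set was flat below the floor. Slbp, the histone mRNA binding protein, was 1.381 in clone 11B against 0.996 to 1.004 in the other clones on 1460168_at. A second probe set had 1.130 in clone 11B against 0.893 to 0.898, but it passed the filter only because clone 11B lay above 1, so it adds no support. The deviation averaged over both was 0.40 ± 0.24. The Chaf1b value ranged over 0.06.

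Of the genes that control entry into S phase, Ccne1, which encodes cyclin E1, differed. It had 0.508 in clone 20B, 0.671 in clone 11B, 1.000 in clone 42, 1.135 in clone 30 and 1.200 in clone 1D on 1416492_at. The deviation was -1.07 ± 0.34 in clone 20B, -0.67 ± 0.34 in clone 11B and 0.55 ± 0.34 in clone 1D, but the other probe set was flat. E2f1 ranged over 0.12, on a probe set where clones 1D, 11B and 20B were tied.

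By clone, the counts of members at least 0.5 log2 units (1.41-fold) away differed most from those of all genes in clones 1D, 11B and 30. Clone 1D had 5 of 32 members above the other clones (15.6%) where 5.57% of all genes were, and 1 below (3.12%), where 2.32% were. The 5 were Rpa2, Rrm1, Rfc4, Rrm2 and Ccne1, and the count was 2 without clone 11B or without clone 30. Clone 11B had 3 above (9.38%, against 4.46%) and 6 below (18.8%, against 4.67%). Those above were Rfc4, Mcm6 and Mcm2, and those below Rpa2, Rrm1, Rrm2, Rfc3, Ccne1 and Mcm7. In clone 20B 2 were above (6.25%, against 4.3%) and 2 below (6.25%, against 2.09%). Clone 30 had 1 above (3.12%, against 6.19%) and 5 below (15.6%, against 6.76%), namely Rfc4, Cdc45, Rpa2, Pcna and Rrm1. Clone 42 had 3 above (9.38%, against 6.38%), Mcm7, Rrm1 and Uhrf1, and 1 below (3.12%, against 3.87%), Rfc4. Without clone 1D the counts above were 3 in clone 30 and 5 in clone 42. Without clone 30 or clone 42 they were 1 in clone 11B and 1 in clone 20B, and without clone 30 the count below in clone 20B was 1.

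At least 1 log2 unit above the other clones lay Rpa2 in clone 20B, where 0.519% of all genes did, and no member in clones 1D (0.911%), 11B (0.678%), 30 (1.25%) and 42 (0.89%). As far below lay Rpa2 in clone 11B (0.806% of all genes), Ccne1 in clone 20B (0.18%), Rfc4 and Cdc45 in clone 30 (1.67%), where Rpa2 was just short of it, Rfc4 in clone 42 (0.986%), and no member in clone 1D (0.318%).

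Clone 11B was the highest clone for 12 of the 32 (37.5%, against 18.9% of all genes) and the lowest for 8 (25%, against 17.7%). In 5 of the 7 polymerase and primase genes it was the highest, by deviations of 0.11 to 0.32. Of these only that of Prim2, 0.32 ± 0.24, exceeded its standard error. Clone 42 was the lowest clone for 2 members (6.25%, against 22.2%) and the highest for 8 (25%, against 22.5%). The highest clone was 1D for 5 members (15.6%), 20B for 3 (9.38%) and 30 for 4 (12.5%), where 19.2%, 16.7% and 22.7% of all genes were. Clone 1D was lowest for 5 (15.6%, against 15.3%), clone 20B for 9 (28.1%, against 17.4%) and clone 30 for 8 (25%, against 27.5%). For 10 of the 32 members the whole range was under the 0.34 log2 units of a probe set's spread, so that their order is not resolved. Of all measured genes 32.4% ranged over less than the 0.27 of Lig1, and 47.0% over less than the 0.38 of Pole. Between pairs of clones the members most often at least 1 log2 unit apart were those of clones 20B and 30, with Cdc45, Rfc4 and Rpa2 higher in clone 20B and Prim1 and Ccne1 higher in clone 30 (15.6% of members, against 4.11% of all genes). Clones 30 and 42 had no member that far apart, where 4.08% of all genes were.

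Of 52 further replication genes 39 could be followed, and 5 of them ranged over at least 1 log2 unit, near the 13% of all genes. Cdk2, the partner kinase of cyclin E, was 2.091 in clone 11B against 0.956 to 1.004 in the other clones. Its other probe set lay below the floor at 0.847 to 0.857 and did not set clone 11B apart. Dbf4, the activator of the Cdc7 kinase, deviated by 0.80 in clone 11B, while its other probe set lay below the floor at 0.849 to 0.857. Gins4 deviated by -0.67 in clone 20B and 0.55 in clone 42. Usp1, a deubiquitinase that acts on PCNA, deviated by -0.82 in clone 30, which was the lowest clone on each of its 3 probe sets. Clone 30 was the lowest clone for 18 of the 39 (46.2%, against 27.5% of all genes), and 30 of them lay below the other clones there, as 5428 of the 9435 genes did, with a median deviation of -0.02. Some were lowest there by very little, such as E2f3, E2f8 and Tipin, with deviations of -0.018, -0.0145 and -0.014. These lie far below the spread of a probe set, so that their order is not resolved. The fifth wide gene, Dnmt1, the maintenance DNA methyltransferase, which was chosen after its values were seen, lay the other way: it was highest in clone 30 on all 3 of its probe sets, at 1.659, 2.109 and 2.134, a deviation of 0.97.

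Of 18 measured mitosis genes none ranged over 1 log2 unit, against 13% of all measured genes. Their median range was 0.37, against 0.41 over all genes. Clone 11B was the highest for 9 of them (50%, against 18.9% of all genes) and the lowest for none (against 17.7%), with a median deviation of 0.14, and clone 30 was the lowest for 9 (50%, against 27.5%). The 9 in clone 11B include Nusap1, at 1.077 against 0.932 to 0.945, which passed the filter only through clone 11B and adds no support. The 9 in clone 30 include Birc5 and Tpx2, at deviations of -0.015 and -0.010, whose order is not resolved. Bub1, a spindle checkpoint kinase, had 0.640 in clone 30 and 1.189 in clone 11B, Plk1, a mitotic kinase, 0.704 and 1.201, and the proliferation marker Mki67 0.768 in clone 30 and 1.235 in clone 20B. Ccnb2, a cyclin of mitosis, was lowest in clone 42 at 0.707.

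Of 12 G1 cyclin, kinase and inhibitor genes 7 could be followed. Cdkn1a, which encodes the inhibitor p21, was 0.457 in clone 11B and 1.481 in clone 42, against 0.989 to 1.013 in the other clones, a range of 1.70 log2 units on 1 probe set. Its other probe set lay below the floor, at 0.482 in clone 30 and 0.720 to 0.779 in the other clones, and did not set clones 11B and 42 apart. Ccnd1, cyclin D1, deviated by 0.53 in clone 20B and -0.47 in clone 30 over 3 probe sets. For Cdkn1b, the inhibitor p27, the probe sets disagreed in clone 11B, at 0.364 and 1.370, and Cdk4 was highest in clone 11B, with 1.279 and 1.289 on 2 probe sets.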

How the data were processed

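The deposited table holds a linear ratio for 45101 probe sets in 5 samples. The unit was read from the values, since headers and labels leave it out: the 5 ratios had a median of exactly 1 on 18926 probe sets and less than 1 on the other 26175. Per the submitters' processing notes RMA and GCRMA were used, with no version or role given. Arrays have no read depth.

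Gene names follow the supplied platform annotation, of which the 34958 probe sets with 1 symbol were used (932 had several, 9211 none). Clones were called tied on a probe set if 3 or more of their ratios stood to one another, within 0.004 log2 units, as on the most common row of the table, which 356 probe sets shared; this held for 25.1% of measured probe sets and 6 of the 44 of members. Values were computed with Python 3.11.15, numpy 2.4.6 and pandas 2.3.3, and the calculation was tested on artificial ratios with known differences. With 1 array per clone no test was possible. Members and lists were chosen with earlier results of these data known. Named genes are the 10 members with the largest range, up to 4 members per clone at least 0.5 log2 units above or below, the ring genes and Pcna, and the 4 widest genes of each further list; other members are named to account for all, and other markers and neighbours after seeing values. Promoters came from RefSeq. The alternatives were other ways to combine, filter and normalize probe sets and leaving out each clone.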

Additional observations from a re-analysis of the deposited data

How the results depend on the processing

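Under all 14 alternatives the median deviations of the replication genes moved by less than a limit set from the spread of a probe set. The limit was 0.34 log2 units divided by the square root of the 32 members. It was wider than the medians themselves, and that of clone 30 went from -0.0033 to 0.0035 with quantile normalization. The counts of members depended mainly on which probe sets were averaged. With every probe set averaged, including those below the floor, 2 members ranged over at least 1 log2 unit. In that setting 0, 1, 1, 0 and 1 members lay at least 0.5 log2 units above in clones 1D, 11B, 20B, 30 and 42, and 3 and 1 lay below in clones 11B and 20B. With flat probe sets kept, 5 members had that range and 3 lay above in clone 1D. The other 7 alternatives with all clones moved no count by over 1.5 times, 1 of them, without probe sets on which 3 or more clones were tied, chosen after seeing the data. Leaving out each clone in turn gave 5 to 7 members with that range. The counts above were then 2 to 4 in clone 1D, 1 to 3 in clone 11B, 1 to 2 in clone 20B, 1 to 3 in clone 30 and 2 to 5 in clone 42. Below, they were 5 to 7 in clone 11B and 1 to 3 in clone 20B. The deviation of Rfc4 in clone 1D lay between -0.054, without clone 30 or clone 42, and 1.25, since the median of the others moved between the high and the low clones. Of the named ranges and deviations, 306 moved by less than the standard error of the gene and 45 by more under the alternatives with all clones, and none of these changed sign. With quantile normalization Ccne1 in clone 20B lay at -1.78. No paired analysis was possible because each clone has 1 array and the labels give no replicate numbers. The number of arrays limits the precision, and signal over background cannot be read from ratios.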
